A study of Mus musculus with 15 samples.

Results

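IP20D-3 was set against IP14D-1, a pair of mouse induced pluripotent stem (iPS) cell lines that the labels place on the same B6D2F1 genetic background. The comparison holds every array titled for either line, 3 of IP20D-3 and 3 of IP14D-1, which is 6 of the 15 arrays of the series, and all 45037 non-control probe sets of the 45101 on each array. A probe set is the group of short oligonucleotides that measures one transcript. Both lines are labelled as iPS cells, and the fibroblasts (MEF, B6D2F1) are described as the cells from which iPS cells were made. The other groups are the embryonic stem (ES) cell line CL11 (B6D2F1), the iPS line IP14D-101 (C57x129S2) and MEF, again with 3 arrays each. They are described by their levels, and their arrays also entered the scaling, the background level and the estimate of the spread. ES and iPS cells alike grew on feeder MEF treated with mitomycin C, with LIF, in medium holding either fetal bovine serum or a knockout serum replacement. Which medium each line had, the reprogramming factors, the passage, the sex and whether a line is 1 clone are not given in the sources used here. The 3 arrays of a line are described as biological replicates. A p-value reflects no more than the spread between arrays within groups. That spread was estimated from all 15 arrays together and steadied by that of other probe sets.

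Pluripotent stem cells keep themselves in an undifferentiated state through a network of transcription factors around Pou5f1 (Oct4), Sox2 and Nanog, which LIF sustains in mouse cells. Reprogrammed lines from one source can differ at imprinted loci, where only the maternal or the paternal copy of a gene is transcribed. The Dlk1-Dio3 region of mouse chromosome 12 is the locus best known for this in mouse iPS cells. Its maternal copy makes the long noncoding RNAs Meg3, Rian and Mirg, and its paternal copy makes the membrane protein Dlk1.

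Before scaling, the mean signal of an array, with the 2% of probe sets at either end trimmed, was 11359 to 11851 in IP20D-3, against 15316 to 17998 in IP14D-1. Every array was scaled to one trimmed mean, and levels are given as log2(signal + 16). A level of 11.06 is called background, the 95th percentile of 43 probe sets for olfactory receptors. Probe sets above it made up 54.1% to 55.1% of each IP20D-3 array and 55.8% to 57.6% of each IP14D-1 array. The 3′ to 5′ signal ratio of actin, which rises as RNA degrades, was 1.25 to 1.30 in IP20D-3 and 1.32 to 1.39 in IP14D-1. Its part in the results was not tested, nor was that of the brighter IP14D-1 arrays. Arrays correlated at 0.927 to 0.929 within IP20D-3, at 0.932 to 0.938 within IP14D-1 and at 0.920 to 0.926 between the lines. In bulk RNA, fewer cells of a type and less RNA per cell cannot be told apart.

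The lines shared most of their expression, and the larger differences ran mainly one way. An adjusted p under 0.05 in limma, over all probe sets, is called changed here: 2466 probe sets changed, 5.48% of those tested, 1233 of them higher and 1233 lower in IP20D-3 (2.74% each). At least 2-fold differences were found in 150 higher probe sets (0.333%) and 452 lower ones (1.0%). At least 4-fold differences, with arrays below background raised to it, were left in 8 higher and 50 lower probe sets. Of the changed probe sets, 2449 had no overlap between the 3 arrays of each line, which held for 25.5% of all probe sets. Taking the brightest probe set of each of 18193 genes, 1346 genes changed (7.4%), and 704 genes were higher (3.87%) and 642 lower (3.53%) in IP20D-3. As a reference for size, in the same fit 8188 probe sets (18.2%) differed between IP20D-3 and IP14D-101 and 10556 (23.4%) between IP14D-101 and IP14D-1, comparisons that share arrays with this one and cross strain backgrounds. The equal split depended on the scaling: 67.9% of changed probe sets were higher after median scaling, and 49.4% after quantile normalization. Without any scaling the brighter IP14D-1 arrays moved the median of all probe sets to −0.59 log2, against −0.05 here.

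The 3 long noncoding RNAs of the Dlk1-Dio3 region were among the most strongly lowered transcripts of IP20D-3. Meg3, a maternally expressed RNA with tumour suppressor functions in other settings, had levels of 13.44, 13.31 and 13.36 in IP20D-3, against 17.26, 17.34 and 17.28 in IP14D-1. The arrays of the lines lay far apart, and every IP20D-3 array was still above background. The difference was −3.93 ± 0.12 log2 (standard error, n = 3 each; adjusted p = 7.0e-13), or 15.2-fold lower. Rian, the host of small nucleolar RNAs and miRNAs, had levels of 9.11, 9.89 and 10.70 in IP20D-3, against 14.08, 14.26 and 14.27 in IP14D-1. All IP20D-3 arrays were below background for Rian, so that it was at least 8.82-fold lower (adjusted p = 1.2e-08). Mirg, a miRNA host further along the same strand, had levels of 11.67, 11.38 and 11.51 in IP20D-3, against 14.62, 14.61 and 14.41 in IP14D-1. It lay just above background in IP20D-3 and was 8.16-fold lower than in IP14D-1 (−3.03 ± 0.16 log2, adjusted p = 1.4e-09).

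The low levels were seen over nearly all probe sets of these transcripts and set IP20D-3 apart from every other kind of cell on the arrays. Of 11 Meg3 probe sets 9 were lower, of 4 Rian probe sets 4, and of 2 Mirg probe sets 2, and in all 17 the arrays of the lines did not overlap. Their differences ran from −4.92 to −1.05 log2. Mean levels of Meg3 in CL11, IP14D-101 and MEF were 16.39, 16.28 and 18.31, and those of Rian 13.69, 13.67 and 14.64. For Mirg they were 14.14, 13.80 and 14.79. IP20D-3 was thus lowest of the 5 groups for each RNA, while IP14D-1 lay between CL11 and MEF for each. Dlk1, the paternally expressed neighbour, had a level of 12.20 ± 0.30 in IP20D-3, against 13.81 ± 0.04 in IP14D-1 (SD, n = 3). It was 3.04-fold lower in IP20D-3 (−1.60 ± 0.20 log2, adjusted p = 6.1e-05), at a level close to the 12.42 of CL11. This Dlk1 probe set and the Meg3 probe set given above are of types that can match more than 1 transcript, and the other Dlk1 probe set was below background in both lines. Of 5 measured genes of the region 4 were lower, against 3.53% of all genes, and the other, Dio3os, was below background in both lines. The 4 genes passed under each of the 16 other processing settings tried.

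**Figure D1:**
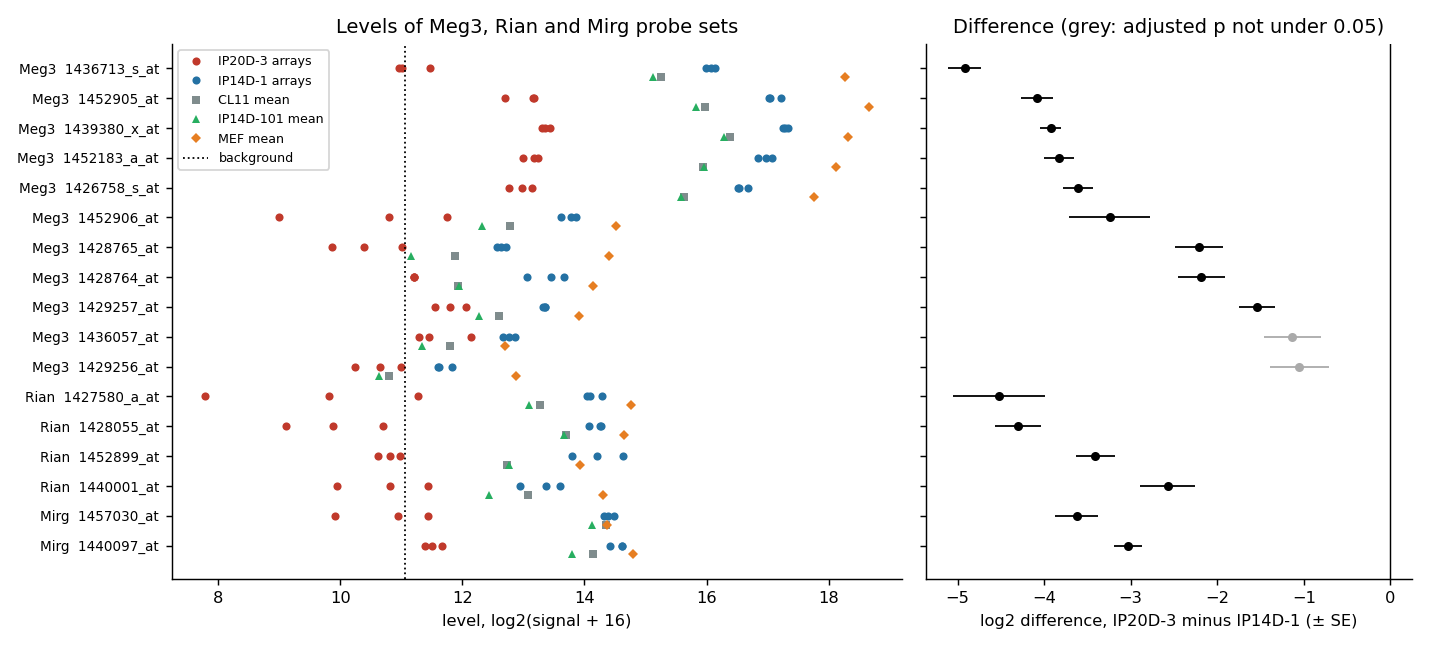
Levels (left, log2(signal + 16)) and differences (right, log2, IP20D-3 minus IP14D-1, bars ± standard error) of the 11 Meg3, 4 Rian and 2 Mirg probe sets. Points are single arrays of IP20D-3 and IP14D-1, other symbols are means of CL11, IP14D-101 and MEF, and the dotted line is background. In all 17 probe sets the IP20D-3 arrays lie below the IP14D-1 arrays, and the 2 grey points are the Meg3 probe sets that did not pass.

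The start of Meg3 is shown because the 3 RNAs fell together and are read from the same strand. In the RefSeq table of mouse promoters (GRCm38.p6), the 300 bases at chr12:109540746-109541045 on the plus strand, from 250 bases before the Meg3 start to 50 after it, read as follows, with CG dinucleotides, the sites of DNA methylation, in capitals.
Meg3: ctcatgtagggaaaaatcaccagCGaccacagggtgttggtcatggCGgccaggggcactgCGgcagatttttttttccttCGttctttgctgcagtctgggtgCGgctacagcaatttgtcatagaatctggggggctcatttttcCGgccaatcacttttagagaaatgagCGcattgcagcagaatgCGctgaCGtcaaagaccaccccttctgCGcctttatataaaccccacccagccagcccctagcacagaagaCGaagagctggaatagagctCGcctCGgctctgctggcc
It holds 13 CG dinucleotides, and 37.9% of the 32851 promoters in the table hold at least as many. The same window held 10 at Mirg and 0 at Rian, and the median promoter held 7. DNA methylation was not measured here.

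The arrays measured the long RNAs and not the mature miRNAs cut from such transcripts. RefSeq places 25 mature miRNAs within Rian (6) or Mirg (19), with 24 different seeds. Examples from both hosts follow on the plus strand of chromosome 12 (GRCm38.p6), with the seed, bases 2 to 8, in capitals. The first is from Rian and the others are from Mirg, and the last 2 share a seed.
mmu-miR-370-3p: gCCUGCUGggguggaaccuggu
mmu-miR-154-3p: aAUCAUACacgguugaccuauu
mmu-miR-377-3p: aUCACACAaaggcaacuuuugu
mmu-miR-409-3p: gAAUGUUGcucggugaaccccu
mmu-miR-410-3p: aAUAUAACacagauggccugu
mmu-miR-453: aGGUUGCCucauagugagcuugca
mmu-miR-496a-5p: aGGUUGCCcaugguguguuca
They lie at chr12:109618305-109618326, chr12:109738474-109738495, chr12:109740553-109740574, chr12:109743204-109743225, chr12:109743764-109743784, chr12:109735669-109735692 and chr12:109739132-109739152, in the order printed.

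Among the other imprinted genes that were listed, those that changed differed by less. Of 39 measured, 1 was higher and 4 were lower, where 3.87% of all genes were higher and 3.53% lower. The median difference of the 39 was −0.10 log2, against −0.02 over all genes. Snhg14 was not in this list. Its brightest probe set was lower, while another was higher by 2.36 log2 (adjusted p = 8.5e-05 in limma), so its direction is not settled. Nnat, a paternally expressed neuronal membrane protein gene, was 2.60-fold lower in IP20D-3 (14.19 ± 0.22, against 15.57 ± 0.06 in IP14D-1; SD, n = 3; adjusted p = 4.8e-06). Plagl1, a zinc finger growth regulator, was 2.04-fold lower (15.07 ± 0.07, against 16.10 ± 0.06; adjusted p = 3.5e-05). The cyclin-dependent kinase inhibitor gene Cdkn1c and Ndn were lower by −0.77 and −0.42 log2 (adjusted p = 0.0203 and 0.0337). Igf2r, the maternally expressed receptor that clears IGF2, was higher by 0.42 log2 (adjusted p = 0.0315), a sign that turned without scaling. The calls of Cdkn1c, Ndn and Igf2r were lost when some single arrays were left out (highest adjusted p = 0.121, 0.161 and 0.165), and those of Cdkn1c and Ndn under median scaling (adjusted p = 0.111 and 0.327). Of 9 sex-linked genes measured, only Eif2s3x passed, at 0.24 log2 and adjusted p = 0.0496, and it did so with none of the 6 arrays left out in turn and under neither quantile nor median scaling (adjusted p = 0.0608 and 0.0864). Xist, the RNA that coats the inactive X chromosome, had levels of 13.67, 13.62 and 13.45 in IP20D-3, against 13.55, 13.68 and 13.77 in IP14D-1. The Y-linked Eif2s3y had levels of 15.75, 15.63 and 15.69 in IP20D-3, against 15.61, 15.66 and 15.62 in IP14D-1. The lines overlapped for both genes (adjusted p = 0.889 and 0.97).

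Several genes of cell structure and RNA handling, none of them a lineage marker, were low in IP20D-3 alone of the 5 groups. Cap1, which encodes a protein that recycles actin subunits, had levels of 11.66, 11.54 and 10.54 in IP20D-3, against 15.79, 15.90 and 15.79 in IP14D-1. The lines did not come near each other, and 1 IP20D-3 array was below background. Cap1 was 23.9-fold lower in IP20D-3 (−4.58 ± 0.19 log2, adjusted p = 4.5e-11), and its second probe set was lower by −4.03 log2. CL11, IP14D-101 and MEF had mean Cap1 levels of 15.55, 15.58 and 16.82. Tmem87a, a transmembrane protein gene, had levels of 7.45, 10.49 and 10.73 in IP20D-3, against 13.72, 13.97 and 13.75 in IP14D-1. All IP20D-3 arrays were below background, so the gene was at least 6.72-fold lower (adjusted p = 5.7e-05), while CL11, IP14D-101 and MEF stood at 13.54, 13.67 and 13.80. Rbm45, an RNA-binding protein gene, had levels of 13.07, 12.74 and 12.02 in IP20D-3, against 15.59, 15.71 and 15.49 in IP14D-1. Rbm45 was 7.94-fold lower in IP20D-3 (−2.99 ± 0.18 log2, adjusted p = 6.0e-09), and the 3 other groups had means of 14.93, 15.16 and 15.28.

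Ccnb1ip1, whose product acts at meiotic crossovers, was low in both IP20D-3 and fibroblasts. It had levels of 11.21, 11.70 and 11.50 in IP20D-3, against 14.42, 14.55 and 14.66 in IP14D-1, without overlap. The difference was −3.08 ± 0.25 log2, or 8.44-fold lower (adjusted p = 3.2e-07). Mean levels were 14.94 in CL11, 14.80 in IP14D-101 and 9.90, below background, in MEF.

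Sp5, a zinc finger transcription factor and direct Wnt target of early embryos and stem cells, stood out as high in IP14D-1 rather than low in IP20D-3. Its levels were 9.47, 12.21 and 11.92 in IP20D-3, against 14.68, 14.41 and 14.89 in IP14D-1. The IP20D-3 arrays were spread over background and the IP14D-1 arrays were close together well above it. Sp5 was lower in IP20D-3 (−3.46 ± 0.56 log2, adjusted p = 8.0e-04). Mean levels in CL11, IP14D-101 and MEF were 10.51, 10.90 and 7.76, all below background. Of 19 measured Wnt targets and primitive streak genes, 3 were lower and none higher in IP20D-3, against 3.53% and 3.87% of all genes. The median difference of the 19 was −0.75 log2, and 8 of them were below background in both lines. Axin2, a feedback inhibitor of the Wnt pathway, had levels of 13.37 ± 0.30 in IP20D-3 and 14.25 ± 0.10 in IP14D-1 (1.85-fold lower, adjusted p = 0.0387). Eomes, a primitive streak and trophoblast T-box factor, had levels of 11.89 ± 0.82 in IP20D-3 and 13.34 ± 0.56 in IP14D-1 (2.72-fold lower, adjusted p = 0.0353). Median scaling ended both calls (adjusted p = 0.0907 for Axin2 and 0.0582 for Eomes), and they also failed with 5 and 4 of the 6 arrays left out in turn (highest adjusted p = 0.177 and 0.179).

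The bases before the Sp5 start are shown for its link to Wnt signalling, with the 7-base sequences bound by TCF and LEF factors in capitals. The motif searched, on both strands and with overlaps counted, was CTTTG followed by a pair of bases that are each A or T. The window is the 250 bases at chr2:70474673-70474922, plus strand, from RefSeq (GRCm38.p6).
Sp5: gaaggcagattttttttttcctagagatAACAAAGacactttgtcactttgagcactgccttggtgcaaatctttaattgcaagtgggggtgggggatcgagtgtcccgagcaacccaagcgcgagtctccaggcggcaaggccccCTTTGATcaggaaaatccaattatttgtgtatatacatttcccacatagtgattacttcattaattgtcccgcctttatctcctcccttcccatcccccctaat
It held 2 matches, where 14.8% of promoters held at least 1 in the same window and 1.43% at least 2. The windows of Axin2 and Eomes held 0 each.

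Genes of the fibroblast matrix and of contractile cells were lower in IP20D-3 than in IP14D-1. Of 35 measured fibroblast and feeder matrix genes 14 were lower and 1 was higher, with a median difference of −0.48 log2, where 3.53% of all genes were lower and their median was −0.02 log2. Of 24 smooth muscle and contractile genes 9 were lower and 1 was higher, with a median of −0.43 log2. Prss23, a secreted serine protease gene, had levels of 11.16, 11.02 and 10.64 in IP20D-3, against 14.90, 14.64 and 14.64 in IP14D-1. It was near background in IP20D-3, as in CL11 and IP14D-101 (10.34 and 10.72), and far higher in MEF (19.60). The difference came to at least 12.4-fold (adjusted p = 8.0e-08). Acta2, the smooth muscle actin gene, had levels of 14.22, 13.70 and 13.94 in IP20D-3, against 16.63, 16.67 and 16.65 in IP14D-1. It was 6.48-fold lower (−2.70 ± 0.12 log2, adjusted p = 1.6e-10), with mean levels of 13.21, 14.50 and 19.96 in CL11, IP14D-101 and MEF. Anxa1, a calcium-dependent membrane-binding protein gene, had levels of 13.52, 13.43 and 13.02 in IP20D-3, against 15.88, 15.93 and 16.11 in IP14D-1. It was 6.28-fold lower (adjusted p = 1.6e-10). For both genes the lines were separated by more than the whole spread of either.

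Several matrix genes were near or below background in IP20D-3 and low but measurable in IP14D-1. Col1a1, the main fibrillar collagen gene, had levels of 7.27, 9.37 and 8.92 in IP20D-3, against 12.29, 12.18 and 12.38 in IP14D-1. It was at least 2.33-fold lower (adjusted p = 3.3e-04), and MEF stood at 19.74. Col3a1 was at least 3.16-fold lower and Col5a2 at least 3.45-fold lower (adjusted p = 5.3e-06 and 2.9e-04). The secreted factor gene Igfbp7 was 6.11-fold lower, with levels of 11.63, 12.26 and 11.25 in IP20D-3, against 14.34, 14.62 and 14.01 in IP14D-1. Lox, which crosslinks collagen, was 5.95-fold lower, and the matrix glycoprotein gene Tnc at least 3.41-fold lower (adjusted p = 3.1e-04 and 5.7e-04). Among contractile genes Cald1 was 3.19-fold lower, Tagln 2.77-fold lower and the secreted serum response gene Ccn1 1.96-fold lower (adjusted p = 9.0e-09, 1.8e-07 and 0.00113). The exceptions, named after their values were seen, were Fn1, the fibronectin gene, at 0.46 log2 higher (adjusted p = 0.00426), and Csrp2, a LIM domain protein gene, at 0.65 log2 higher (adjusted p = 8.6e-05). Fn1 turned sign without scaling.

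Of 11 measured fibroblast markers 5 were lower in IP20D-3 and none higher, against 3.53% and 3.87% of all genes. The summed signal of the 11 was 11936 to 15688 in IP20D-3 and 30376 to 31037 in IP14D-1. It was 21834 to 25292 in CL11, 26960 to 28159 in IP14D-101 and 4389093 to 4810121 in MEF. In IP20D-3 2 of the markers were above background and in IP14D-1 5, while Pdgfrb, Pdgfra, Lum, Dcn, Prrx1 and Twist2 were below it in both. The 6 smooth muscle markers summed to 84874 to 104578 in IP20D-3 and 258854 to 276391 in IP14D-1. They summed to 26664 to 31302 in CL11, 55315 to 73695 in IP14D-101 and 2985443 to 3328856 in MEF. IP20D-3 thus lay above CL11 and IP14D-101 in this sum, and IP14D-1 lay above all of them. The 6 macrophage markers summed to 6308 to 8291 in IP20D-3 and 8991 to 10825 in IP14D-1, with Ptprc, Aif1, Tyrobp and C1qa below background in both. The gap between the lines came to 0.213% to 45.5% of the MEF signal over the 14 lower matrix genes, with a median of 0.836%. For the 9 lower contractile genes it was 1.91% to 11.1%, with a median of 8.49%. Mesenchymal transcription factors gave no call among 24 in limma, with 6 at an unadjusted p under 0.05 and 15 below background in both lines. MEF was at least 2-fold above both lines in 39.2% of the lower probe sets, in 6.33% of the higher ones and in 15.2% of all. The part of feeder cells in these results was not tested.

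**Figure D2:**
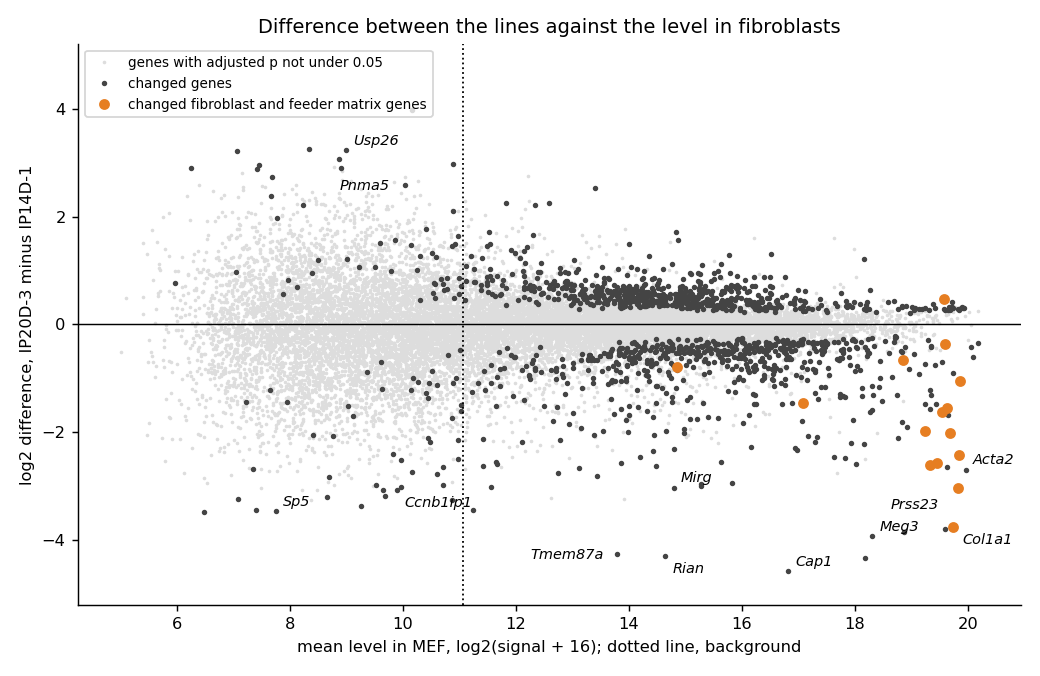
Difference between the lines (log2, IP20D-3 minus IP14D-1) against the mean level in MEF (log2(signal + 16)) for 18193 genes. Dark points are genes that changed, orange points are changed fibroblast and feeder matrix genes, grey points did not pass, and the dotted line is background. Most orange points lie at high MEF levels and below 0. Rian, Cap1 and Tmem87a lie as low at lesser MEF levels, and Meg3 lies as low at a high MEF level.

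Genes of cell cycle arrest and a keratin pair of simple epithelia were also lower in IP20D-3. Of 21 measured p53 and senescence genes 8 were lower and 1 was higher, where 3.53% of all genes were lower and 3.87% higher. The median of the 21 was −0.33 log2, and 5 were lower under median scaling. Cdkn2b, a cyclin-dependent kinase inhibitor gene of the Ink4 locus, had levels of 10.84, 11.37 and 12.15 in IP20D-3, against 13.44, 13.89 and 13.56 in IP14D-1. The 4.53-fold difference (adjusted p = 9.2e-06) was without overlap, and MEF stood at 17.29. Cdkn1a, the p21 gene, was 2.26-fold lower, the p53 target and junction gene Perp 2.32-fold lower and the kinase gene Plk2 1.96-fold lower (adjusted p = 3.4e-06, 5.5e-06 and 6.1e-06). Cdkn2a of the same Ink4 locus was at least 1.94-fold lower (adjusted p = 0.0363), a call lost with 5 of the 6 arrays left out in turn and under quantile or median scaling (adjusted p = 0.0623 and 0.0756). The keratin genes Krt8 and Krt18, which pair in simple epithelia, were 2.38-fold and 1.85-fold lower (adjusted p = 1.6e-05 and 1.9e-05). Their levels in IP20D-3 were 15.11 ± 0.11 and 15.60 ± 0.10, against 16.36 ± 0.03 and 16.48 ± 0.07 in IP14D-1. MEF lay below both lines for Perp, Krt8 and Krt18, at 10.15, 11.21 and 12.44. Of 29 epithelial junction genes 3 were lower and 1 was higher, with a median of 0.02 log2.

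**Figure D3:**
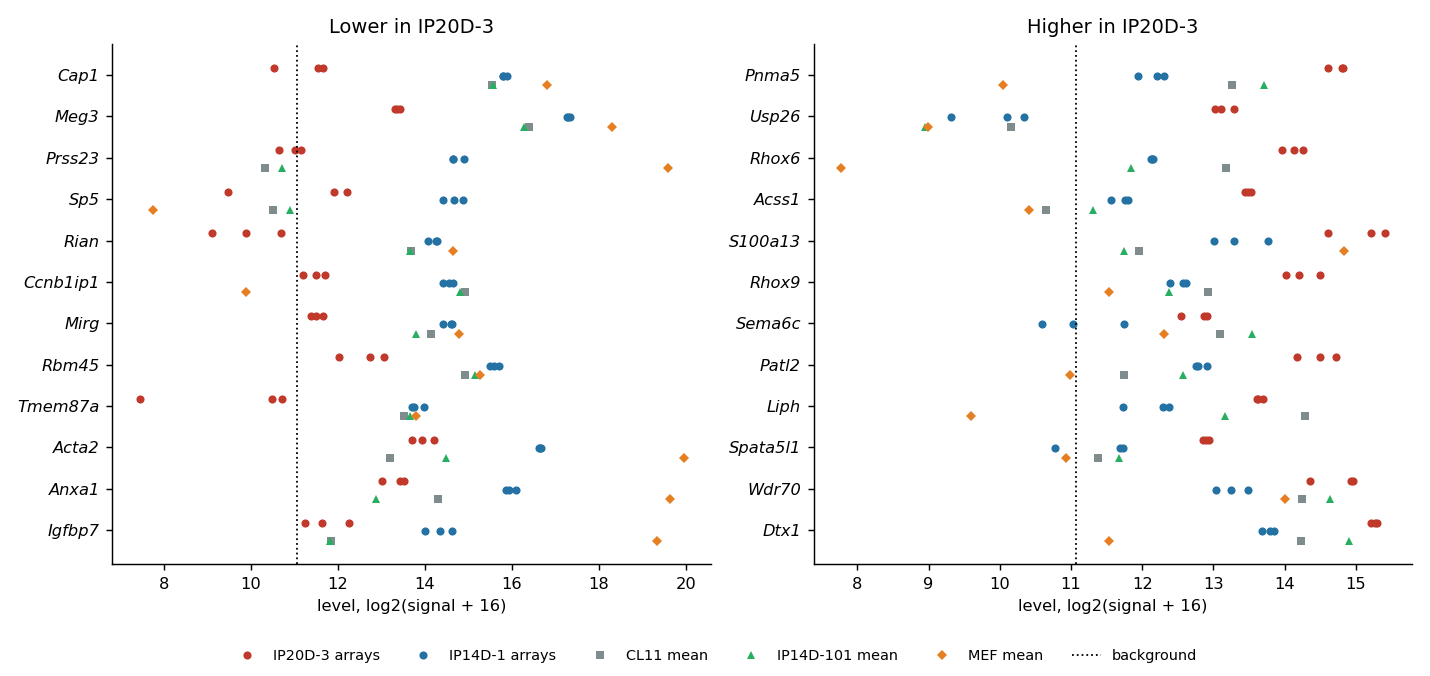
Levels (log2(signal + 16)) of the 12 genes ranked lowest (left) and the 12 ranked highest (right) in IP20D-3 against IP14D-1. Points are single arrays, other symbols are means of CL11, IP14D-101 and MEF, and the dotted line is background. Predicted genes and genes named by an accession were passed over, and the arrays of the lines do not overlap for any of the 24 genes, which the ranking required.

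Of the 12 genes ranked highest in IP20D-3, 4 are X-linked: Pnma5, Usp26, Rhox6 and Rhox9. Among 11908 autosomal and X-linked genes above background in either line, 397 are X-linked. AI662270, a chromosome 11 transcript that the ranking passed over because it is named by an accession and that was picked out after its values were seen, was higher still, at 3.64 ± 0.56 log2 (adjusted p = 5.4e-04). Pnma5, a member of a retrotransposon-derived gene family, had levels of 14.60, 14.81 and 14.81 in IP20D-3, against 12.30, 11.94 and 12.21 in IP14D-1. It was 6.03-fold higher (2.59 ± 0.18 log2, adjusted p = 3.5e-08), above the 13.25 of CL11 and 13.70 of IP14D-101. Usp26, a testis ubiquitin protease gene, had levels of 13.29, 13.11 and 13.02 in IP20D-3, against 9.31, 10.10 and 10.34 in IP14D-1. It was at least 4.22-fold higher (adjusted p = 0.00385), and of the 5 groups only IP20D-3 had a mean above background. Rhox9, a homeobox gene of the reproductive cluster on the X chromosome, had levels of 14.19, 14.02 and 14.49 in IP20D-3, against 12.57, 12.61 and 12.39 in IP14D-1. Its neighbour Rhox6 had levels of 13.96, 14.13 and 14.25 in IP20D-3, against 12.12, 12.14 and 12.15 in IP14D-1. Neither gene overlapped between the lines, and both were higher in IP20D-3 than in CL11 (12.92 and 13.17). Rhox9 was 3.28-fold higher (adjusted p = 3.5e-05) and Rhox6 3.94-fold higher (adjusted p = 0.0333). Rhox6 did not pass whichever array was left out (adjusted p = 0.0837 to 0.106), though its difference stayed at 1.91 to 2.05 log2. The spread behind these p-values is that within all 5 groups.

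Over all genes 3.87% were higher and 3.53% lower. Of 22 measured germ line and meiosis genes 5 were higher and none lower, with a median of 0.03 log2. Besides Rhox6 and Rhox9 these were Rhox5 (1.63-fold, adjusted p = 0.0052), the piRNA pathway helicase gene Tdrd12 (1.96-fold, adjusted p = 7.1e-04) and Dppa3. The list did not hold Ccnb1ip1, the meiotic crossover gene given above, which was lower in IP20D-3. Dppa3, a maternal factor that guards methylation in the zygote, had levels of 16.01, 16.16 and 16.36 in IP20D-3, against 15.13, 14.97 and 15.22 in IP14D-1. The 2.10-fold difference (adjusted p = 0.0272) did not pass when any array was left out (adjusted p = 0.0567 to 0.107). The X chromosome as a whole did not stand higher, with a median of −0.07 log2. Of its 397 genes above background in either line, 21 were higher (5.29%) and 26 lower (6.55%). Over all autosomal and X-linked genes above background the shares were 5.80% and 5.16%.

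The other genes ranked highest belonged to no single group. Acss1, the mitochondrial acetyl-CoA synthetase gene, had levels of 13.49, 13.44 and 13.53 in IP20D-3, against 11.76, 11.80 and 11.57 in IP14D-1 (3.43-fold, adjusted p = 0.00485). Dtx1, a Notch pathway ubiquitin ligase gene, had levels of 15.29, 15.21 and 15.26 in IP20D-3, against 13.79, 13.85 and 13.68 in IP14D-1 (2.80-fold, adjusted p = 1.9e-05). Both were tight within each line. S100a13, a calcium-binding protein gene, was 3.29-fold higher and Patl2, known for its role in oocytes, 3.13-fold higher (adjusted p = 1.7e-04 and 1.3e-04). Liph, a phospholipase gene, was 2.84-fold higher and the WD repeat gene Wdr70 2.82-fold higher (adjusted p = 0.00184 and 0.00238). Acss1, S100a13 and Patl2 were higher in IP20D-3 than the means of both CL11 and IP14D-101, whereas Liph was higher still in CL11 (13.64 in IP20D-3 and 12.13 in IP14D-1, against 14.29 in CL11). Sema6c (semaphorin) and Spata5l1 (an ATPase) were 3.14-fold and 2.82-fold higher (adjusted p = 0.0136 and 0.014), and lost their calls when some single arrays were left out (highest adjusted p = 0.0807 and 0.0756).

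No difference between the lines was detected in the core pluripotency factors. Pou5f1 had levels of 18.93, 18.82 and 18.84 in IP20D-3, against 18.68, 18.70 and 18.83 in IP14D-1, and Sox2 had 18.71, 18.67 and 18.49, against 18.52, 18.68 and 18.54. Both overlapped between the lines, at 0.13 ± 0.23 and 0.04 ± 0.12 log2 (adjusted p = 0.859 and 0.919). Nanog, Esrrb, Zfp42 and the E-cadherin gene Cdh1 gave 0.22, 0.28, −0.34 and 0.04 log2 (adjusted p = 0.43, 0.723, 0.734 and 0.949). All 12 markers of pluripotent cells were above background in both lines, which fits the label of both as iPS cells, and 1 of the 12, Utf1, was higher in IP20D-3. Their summed signal was 4142928 to 4532746 in IP20D-3, against 3837717 to 3980414 in IP14D-1, without overlap. The sums were made after the scaling used here and not under another. Pou5f1 and Sox2 gave 0.06 and −0.02 log2 after quantile normalization. Without scaling, Pou5f1, Sox2 and Nanog gave −0.42, −0.51 and −0.32 log2.

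Klf4 and Myc, used as reprogramming factors in many protocols, were lower in IP20D-3. Klf4 had levels of 17.23, 16.90 and 16.93 in IP20D-3, against 17.80, 17.71 and 17.61 in IP14D-1. It was 1.61-fold lower (−0.69 ± 0.10 log2, adjusted p = 3.9e-04), where CL11 and IP14D-101 had 17.79 and 17.81. Myc had levels of 13.77, 14.76 and 14.10 in IP20D-3, against 15.05, 14.80 and 15.17 in IP14D-1. One IP20D-3 array came within 0.1 of the lowest IP14D-1 array, and the 1.74-fold difference (adjusted p = 0.0117) did not pass under median scaling (adjusted p = 0.055) or with 4 of the 6 arrays left out in turn (highest adjusted p = 0.0727). The 32 measured pluripotency network genes had a median of 0.08 log2, and 5 were higher and 2 lower, against 3.87% and 3.53% of all genes. The higher ones were Dppa3, Tcl1, Tfcp2l1, Utf1 and Fgf4 (0.81, 0.70, 0.57 and 0.56 log2 for the last 4; adjusted p = 0.0261, 0.0211, 0.0395 and 8.8e-04), and the lower ones were Klf4 and Tbx3 (−0.43 log2, adjusted p = 0.0423), which was named after its values were seen. Of these, Fgf4 and Klf4 alone passed with each of the 6 arrays left out in turn, and the highest adjusted p of Tcl1, Tfcp2l1, Utf1 and Tbx3 were 0.105, 0.113, 0.158 and 0.193. Tbx3 also did not pass under median scaling (adjusted p = 0.253).

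Signalling genes moved both ways, where 3.87% of all genes were higher and 3.53% lower. Of 13 BMP and Id genes 3 were lower and none higher, with a median of −0.38 log2. Msx2, a BMP-induced homeobox gene, was lower by at least 2.71-fold (adjusted p = 0.0103; 0.0527 without IP14D-1 replicate 1). Id3, a helix-loop-helix inhibitor of differentiation, was 1.76-fold lower and the BMP decoy receptor gene Bambi 1.60-fold lower (adjusted p = 0.00267 and 0.0285). The ligand genes Lefty1 and Nodal were 1.49-fold and 1.39-fold lower (adjusted p = 0.00268 and 0.0334), 2 of 11 measured Nodal pathway genes with 1 other higher. Median scaling ended the calls of Lefty1, Nodal and Bambi (adjusted p = 0.0719, 0.245 and 0.0961). The FGF feedback genes Spry4 and Spry1 moved apart, at −0.91 and 0.64 log2 (adjusted p = 0.025 and 0.0126), among 3 higher and 3 lower of 15. Nodal did not pass when any array was left out (adjusted p = 0.0557 to 0.123), nor Bambi, Spry4 and Spry1 when some were (highest adjusted p = 0.134, 0.0934 and 0.0817). Of 21 LIF and STAT3 targets 3 were higher and 6 lower, with a median of −0.11 log2. Fst, the activin antagonist, was 4.01-fold lower in IP20D-3, at 12.53, 13.26 and 12.46, against 14.77, 14.57 and 14.92 in IP14D-1 (adjusted p = 2.0e-05). IP14D-1 had the highest mean Fst level of the 5 groups, with 11.91 in CL11, 10.65 in IP14D-101 and 13.99 in MEF.

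Type IV collagen genes were lower in IP20D-3 and 1 laminin gene was higher. Of 28 primitive and visceral endoderm genes 2 were higher and 5 lower, against 3.87% and 3.53% of all genes. The median of the 28 was −0.49 log2, and 12 were below background in both lines. Col4a1 and Col4a2, partner chains of basement membrane collagen, were 2.49-fold and 3.07-fold lower (adjusted p = 4.8e-08 and 2.3e-06). Their levels were 13.61 and 12.14 in IP20D-3 and 14.93 and 13.76 in IP14D-1, both far below the 17.30 and 15.81 of CL11. The laminin chain gene Lama1 was 1.60-fold higher (adjusted p = 0.0173), with levels of 14.05 ± 0.10 in IP20D-3 and 13.37 ± 0.14 in IP14D-1, and passed with 2 of the 6 arrays left out in turn (highest adjusted p = 0.0714).

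Growth and chromatin genes differed by small steps. As a base for the counts, 3.87% of all genes were higher and 3.53% lower. Of 32 proliferation genes 8 were higher and 2 lower in IP20D-3, with a median of 0.12 log2, and 3 to 8 were higher with each array left out in turn. The cell cycle transcription factor gene Mybl2 and the thymidine kinase gene Tk1 were 1.40-fold and 1.42-fold higher (adjusted p = 5.4e-04 and 0.00148), while the cyclin genes Ccnd1 and Ccnd2 were 1.40-fold and 1.55-fold lower (adjusted p = 0.00202 and 0.00371). Ccnd1 did not pass under median scaling (adjusted p = 0.0962) or without the variance trend (adjusted p = 0.0537). Of 40 DNA methylation and chromatin enzymes 5 were higher and 2 lower. Phf19, a Polycomb accessory factor gene, had levels of 14.03, 13.98 and 13.98 in IP20D-3, against 12.78, 12.54 and 12.56 in IP14D-1. It was 2.58-fold higher (adjusted p = 1.2e-04), while Bmi1, of the other Polycomb complex, was 1.79-fold lower (adjusted p = 0.00843). Dnmt1, the maintenance DNA methyltransferase gene, was 1.45-fold higher (adjusted p = 7.6e-04). The signs of Mybl2, Tk1 and Dnmt1 turned when the arrays were not scaled. Of 21 ribosomal protein genes 10 were higher and none lower, led by Rps6 and Rplp0 (0.43 and 0.41 log2, adjusted p = 0.0121 and 0.00253). Their median was 0.26 log2, but 0.03 after quantile normalization, with 1 call, and −0.29 without scaling, with 0 calls, and 2 to 10 passed with each array left out in turn. Rplp0 did not pass under quantile normalization (adjusted p = 0.132). Of 9 measured reference genes, of kinds often used to level samples, 4 were higher and none lower, with a median of 0.29 log2. These were Gusb, Pgk1, Eef1a1 and Rpl13a (adjusted p = 0.014, 0.0176, 0.0323 and 0.0128), named after their values were seen. How these 4 calls fared under other settings or with an array left out was not examined. No difference in this list exceeded 0.42 log2, while leaving out the scaling moved the median of all probe sets from −0.05 to −0.59 log2. Of 22 glutathione and metallothionein genes 7 were higher and 2 lower, with Gpx2 2.10-fold and Gstm2 1.71-fold higher (adjusted p = 0.0314 and 0.00261). Of 37 amino acid and ER stress genes 4 were lower and none higher, among them Pdia4 and Chac1, 2.10-fold and 1.52-fold lower (adjusted p = 0.00796 and 0.0153). Gpx2, Chac1 and Rps6 did not pass when some single arrays were left out (highest adjusted p = 0.138, 0.0969 and 0.0562), nor Chac1 under median scaling (adjusted p = 0.0815).

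**Figure D4:**
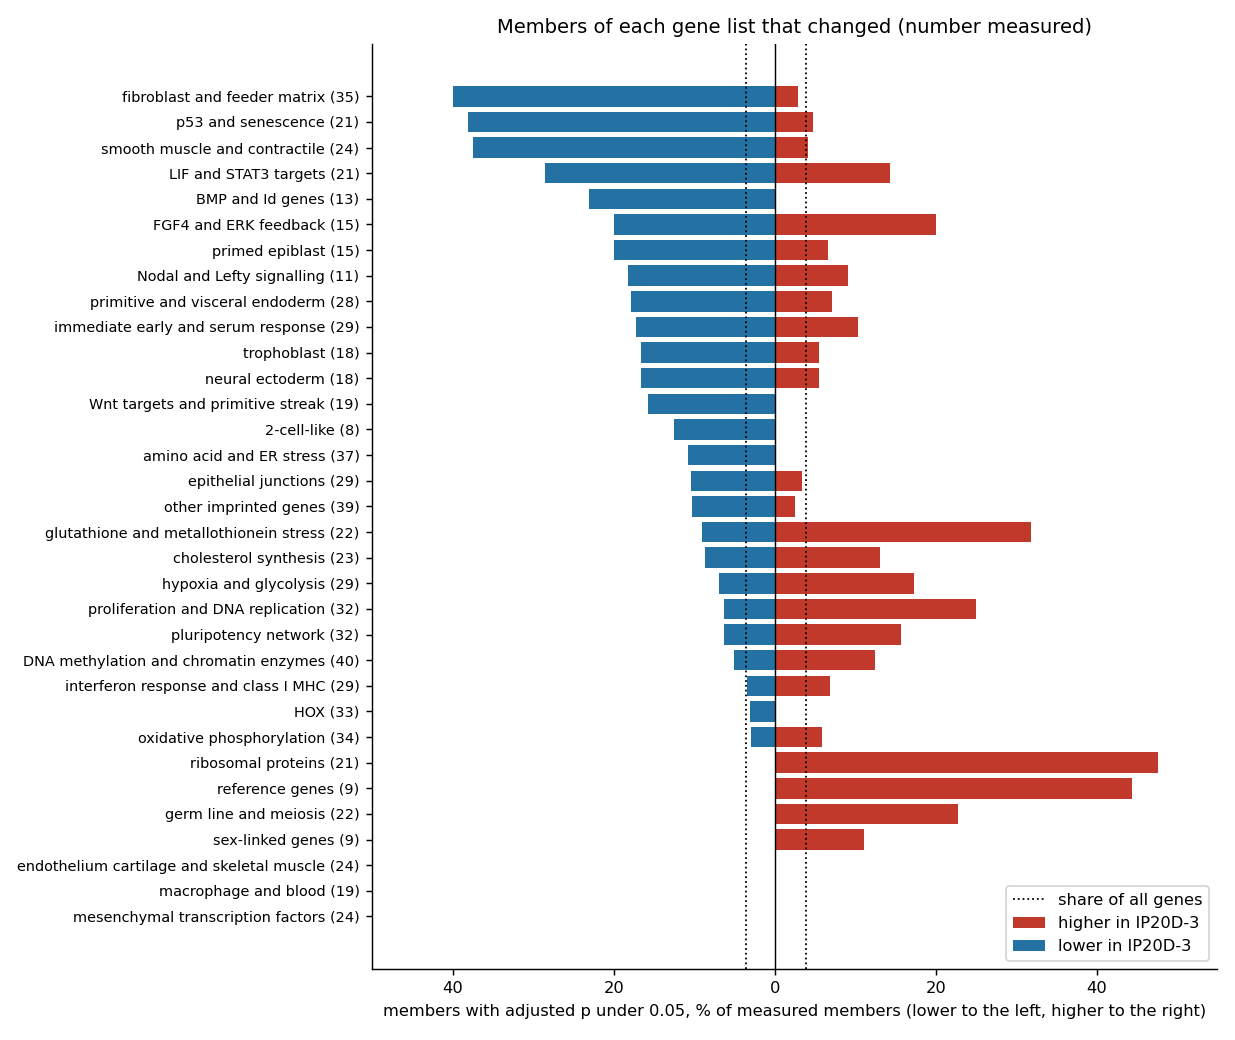
Share of the measured members of each gene list that changed, in percent, with those higher in IP20D-3 to the right (red) and those lower in IP20D-3 to the left (blue). Numbers in brackets are measured members, lists under 8 members are left out, and dotted lines mark the shares over all genes, 3.87% higher and 3.53% lower. The fibroblast matrix, p53 and contractile lists reach furthest to the left, and the ribosomal and reference gene lists furthest to the right.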

How the data were processed

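The deposited intensities are linear MAS5 signals made by the authors in Affymetrix's Expression Console software (per the submitters' processing notes), with versions, scaling target and scan dates not given in the sources used here. They came from 15 arrays with no missing value. Each array was scaled to the mean of the arrays' 2% trimmed means, and 16 was added before log2. Genes were named from the platform annotation: of 45037 probe sets 34945 named 1 gene, 932 several and 9160 none, and 34741 matched RefSeq. A gene is its single-gene probe set with the highest mean.

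One limma 3.58.1 model (R 4.3.3; a mean per group, all 15 arrays, variance trend) gave the contrast IP20D-3 minus IP14D-1, with Benjamini-Hochberg adjustment over 45037 probe sets. It was tested on simulated data. Where the dimmer line's mean was below background, its arrays below background were raised to it and the fold is "at least". No fold is given where both were below.

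Named genes are the 12 highest and 12 lowest changed genes without overlap after that step, passing over predicted genes (Gm, Rik, LOC) and genes named by an accession, up to 5 changed members per list, and a fixed set of pluripotency, imprinted, sex-linked and matrix genes. Members and lists were chosen with earlier results of these data known, so lists are counted and not tested. Samples with the same replicate number did not deviate together (Pearson correlations 0.026, −0.065 and 0.060), so no block was used. Alternatives were pseudocounts of 64 and 1000, quantile, median or no scaling, the 6 arrays alone, a replicate block, a filter on dim probe sets, 1 probe set per gene, no variance trend, and each array left out.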

Additional observations from a re-analysis of the deposited data

How the results depend on the processing

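The settings were followed for 92 named genes, and not for Gusb, Pgk1, Eef1a1, Rpl13a or AI662270. Of those among the 92 that changed as reported, none turned direction except without scaling. In that setting the median of all probe sets fell to −0.59 log2, against −0.05 as reported. There 12855 probe sets changed (111 higher, 12744 lower), and Sox2, Fn1, Igf2r, Eif2s3x, Dnmt1, Mybl2, Tk1, Rplp0 and Rps6 stood at −0.51, −0.083, −0.13, −0.31, −0.013, −0.059, −0.039, −0.13 and −0.12 log2. Of these Sox2 had not passed as reported, and Pou5f1, Nanog, Esrrb, Cdh1 and Eif2s3y, which had not passed either, also stood below 0 there. Uncalled genes crossed 0 elsewhere too: Sox2 and Cdh1 under quantile normalization (−0.022 and −0.0072 log2), Sox2 without IP20D-3 replicate 1 (−0.0012) and Xist under median scaling (0.026). Without scaling, lower genes numbered 26 in the matrix list, 17 in the contractile list and 17 in the p53 list. In that setting 0 were higher in the ribosomal and proliferation lists. Median scaling moved the median of all probe sets to 0.07 log2 and left 614 lower probe sets and 5 lower p53 genes, with 2 higher ribosomal genes, against 1 under quantile normalization. With 1 probe set per gene 786 were lower. Without the variance trend 1038 probe sets changed (442 higher, 596 lower), with 9 lower matrix genes, 2 higher proliferation genes and 0 higher ribosomal genes, and 29 of the named genes lost their call. The cause of these moves was not tested, beyond the overall shift without scaling. With each array left out in turn, which leaves fewer samples, 1386 to 1931 probe sets changed, 661 to 911 higher and 700 to 1020 lower, and the lists gave 2 to 10 higher ribosomal and 3 to 8 higher proliferation genes. The replicate block, for numbers that do not pair the samples, gave 2260 changed probe sets. The 3 arrays a line limit the precision, and probe sets below background have no measured order.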

Other observations

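Some differences fell outside the rule for naming genes and were picked out after their values were seen. AI662270, a chromosome 11 transcript, had levels of 14.61, 15.04 and 14.80 in IP20D-3, against 11.17, 11.64 and 10.73 in IP14D-1, and by its second probe set it was at least 12.6-fold higher. Means in CL11, IP14D-101 and MEF were 10.76, 7.74 and 10.31, so that IP20D-3 lay above all the other groups. A probe set with no gene name had levels of 9.98, 6.66 and 11.29 in IP20D-3, against 14.65, 14.54 and 14.73 in IP14D-1, with 14.12, 13.82 and 14.94 in CL11, IP14D-101 and MEF. Of 866 changed genes with several probe sets, 264 had another probe set changed the same way and 9 had one changed the opposite way, among them Pdxdc1, Sos1, Etv5 and Snhg14. By chromosome, genes above background in either line had medians from −0.07 log2 on X to 0.09 log2 on chromosome 17. On chromosome 17, 55 of 592 such genes were higher (9.29%) and 16 lower (2.70%). On chromosome 3, 26 of 576 were higher (4.51%) and 59 lower (10.2%). Over all autosomal and X-linked genes above background the shares were 5.80% and 5.16%.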
